A study of Homo sapiens with 6 samples.

Results

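The genes described here are 41 lysosome, V-ATPase and autophagy genes, out of the 19330 genes in the deposited table of counts. The choice was made by name for the role of their product, with earlier results of these data known. They comprise 14 genes of V-ATPase, 4 genes of the lysosomal membrane and the Ragulator complex, 7 genes of the lysosomal lumen and of cholesterol export, 2 lysosomal transcription factors, 6 genes of autophagy initiation and conjugation, 2 genes of the ATG8 family, and 6 genes of autophagy receptors and mitophagy. A row of the table matched 40 of them, and NPC2 was not analysed here. Of these 40 genes, 38 passed the filter on low counts and were tested, among 8324 genes tested in all. TFEB, with 1, 6 and 2 counts in the sgCtrl libraries (replicates 1, 2 and 3, the order used throughout) against 0, 8 and 28 in sgN6AMT1, and ULK1, with 5, 7 and 9 against 7, 61 and 33, did not pass it.

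The libraries are RNA-Seq libraries of K562, a human cell line established from a chronic myelogenous leukemia and with erythroid features, 3 from cells with control sgRNAs (sgCtrl) and 3 from cells with sgRNAs against N6AMT1 (sgN6AMT1), a methyltransferase known to modify the translation termination factor eRF1. All cells of both conditions carried the lentiviral vector pLentiCRISPRv2 with Cas9, were selected with puromycin and were kept for 10 d after infection. A figure legend of the paper gives 3 independent transductions for each condition. The labels name OR11A1 and OR2M49 as the control targets, the methods name EGFP, or OR11A1 with OR2M4, and the sgRNA of each library is not given in the sources used here. RNA came from lysates cleared by centrifugation, and was depleted of rRNA. Library totals were 742470, 866894 and 866155 counts for sgCtrl, and 959319, 5526904 and 4062363 for sgN6AMT1, so that sgN6AMT1 replicates 2 and 3 stood apart by their depth.

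N6AMT1 itself had 8.08 ± 2.31 cpm (counts scaled to the library total; SD, n = 3) in sgCtrl and 2.40 ± 2.10 in sgN6AMT1 (exact permutation test, two-sided, p = 0.1, which is the lowest p that 3 against 3 can reach). These values stand for 6, 5 and 9 counts in sgCtrl, against 0, 18 and 16 in sgN6AMT1, and the conditions did not overlap. The 0 counts of sgN6AMT1 replicate 1 allow up to 3.13 cpm (3 counts), counting error only.

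Lysosomes degrade material that arrives by endocytosis and by autophagy. V-ATPase is the proton pump that acidifies their lumen: its V1 sector in the cytosol hydrolyses ATP and its V0 sector in the membrane moves the protons, and acid hydrolases such as the cathepsins work at the resulting low pH. In autophagy, a membrane that carries lipidated proteins of the ATG8 family closes around cargo bound by receptors such as p62, and then fuses with the lysosome. Many of these genes carry the E-box CACGTG near their start sites, in the context known as the CLEAR motif, which is bound by TFEB, TFE3 and other basic helix-loop-helix leucine-zipper proteins.

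Of the 38 members tested, 13 were higher in sgN6AMT1 (34.2%) when the p-values of edgeR's quasi-likelihood test were adjusted by Benjamini-Hochberg over the whole table and read at 0.05, where 5.09% of all genes tested were higher. None was lower (0 of 38), where 4.76% of all genes were. At an unadjusted p under 0.05 there were 17 members, against 2185 of all 8324 genes. The members that this adds are LAMTOR2 and ATG5 with higher values and MAP1LC3B and FUNDC1 with lower values. The median log2 fold change was 0.37 over the members and 0.01 over all genes tested, with 31 members above and 7 below 0. The values of every sgN6AMT1 library lay above those of every sgCtrl library for 17 members (15.1% of all genes tested), and below them for 2 (14.1% of all genes). With DESeq2, 7 of 39 members tested were higher and 0 lower, where 3.12% of all genes were higher and 337 of 9396 lower. Those 7 were ATP6V0B, ATP6V0D1, CTSB, CTSD, CTSL, SQSTM1 and BNIP3L.

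**Figure D1:**
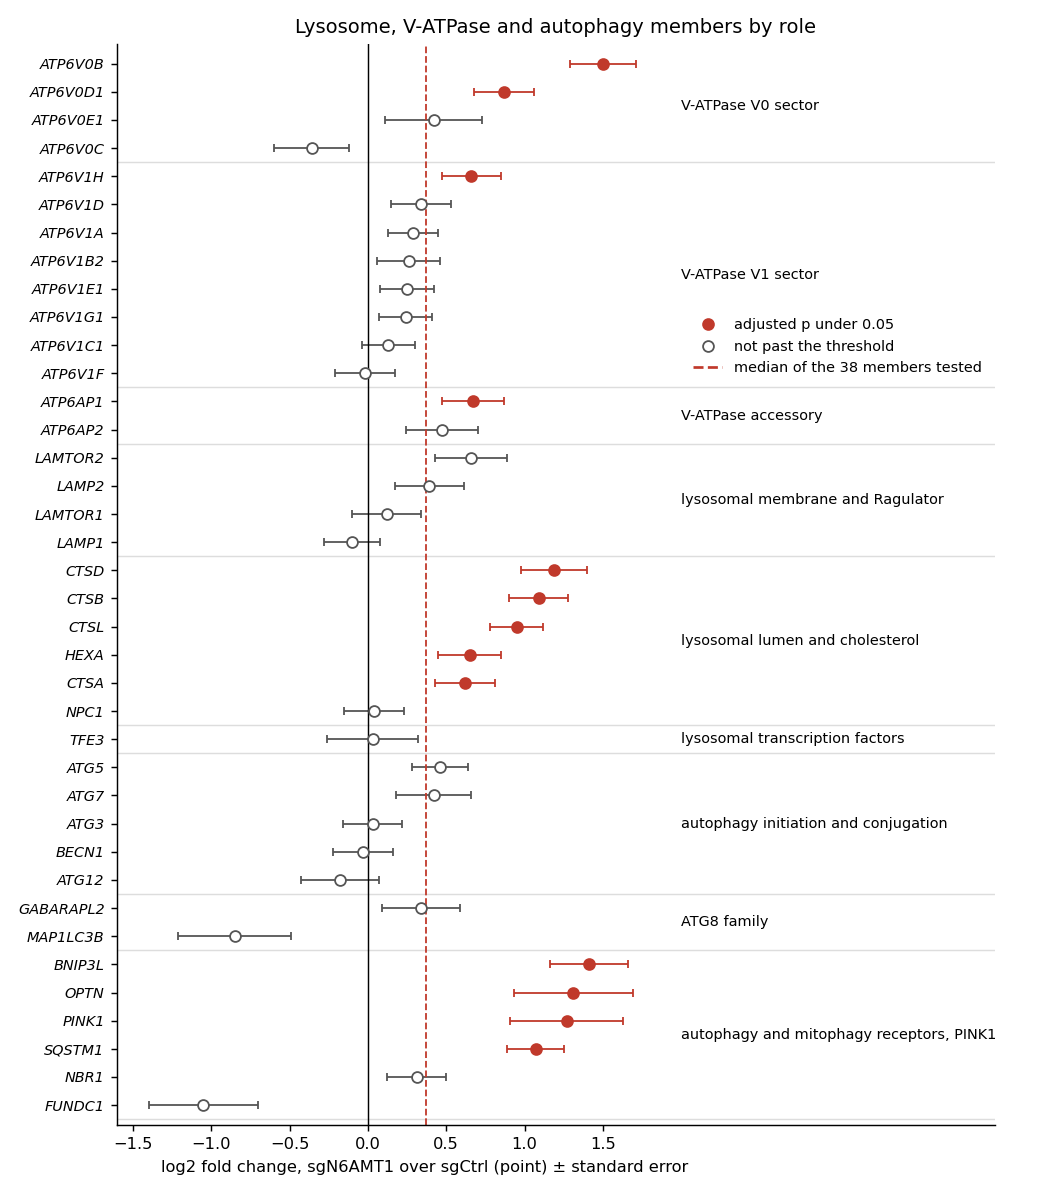
Log2 fold change of sgN6AMT1 over sgCtrl (x axis) for the 38 members tested, grouped by role, with bars of 1 standard error from edgeR; filled points are past an adjusted p of 0.05 and the dashed line is the members' median of 0.37. The 13 filled points lie among V-ATPase, lumen and receptor genes, and none among the membrane and Ragulator, conjugation or ATG8 genes.

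By role, genes of the lysosomal lumen (5 of 6 tested) and of receptors and mitophagy (4 of 6) were called most often, with medians of 0.80 and 1.17 on the log2 scale. Of these genes, OPTN and PINK1 met the filter on low counts only through their sgN6AMT1 libraries. They were not tested with at least 10 counts required in every library. In that fit 11 of 36 members were higher and 1 lower, against 354 and 347 of 7129 genes. Of 15 further receptor and mitophagy genes outside the members, 1 was higher and 0 lower (6.67%, median 0.08). V-ATPase followed with 4 of 14 genes and a median of 0.31, while 0 of 4 membrane and Ragulator genes, 0 of 5 initiation and conjugation genes and 0 of 2 ATG8 genes passed (1 of each group at an unadjusted p under 0.05, and 0 with DESeq2). Differences between these groups were not tested. Set against the sgCtrl mean, the members had a median log2 level of 0.36, 0.38 and 0.41 in the sgN6AMT1 libraries, and of -0.03, -0.07 and 0.02 in the sgCtrl libraries. The median over all members was therefore about equally high in the shallow and in the deep sgN6AMT1 libraries. This did not hold for every group: the V0 genes had medians of 0.24, 0.68 and 0.85 in these libraries, and the V1 genes 0.28, 0.21 and 0.22. The number of members called did depend on the libraries: with sgN6AMT1 replicates 2 and 3 left out together, a setting chosen after seeing the data, 4 members passed, against 122 of all genes. In that fit sgN6AMT1 is sgN6AMT1 replicate 1 alone, and the spread comes from the sgCtrl libraries only, so that its p-values assume that the lone library varies as they do. Leaving out sgCtrl replicate 1, sgCtrl replicate 2 or sgN6AMT1 replicate 3 gave 8, 6 and 8 members, against 301, 220 and 538 of all genes and 820 with all libraries. All of these members were higher in sgN6AMT1.

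**Figure D2:**
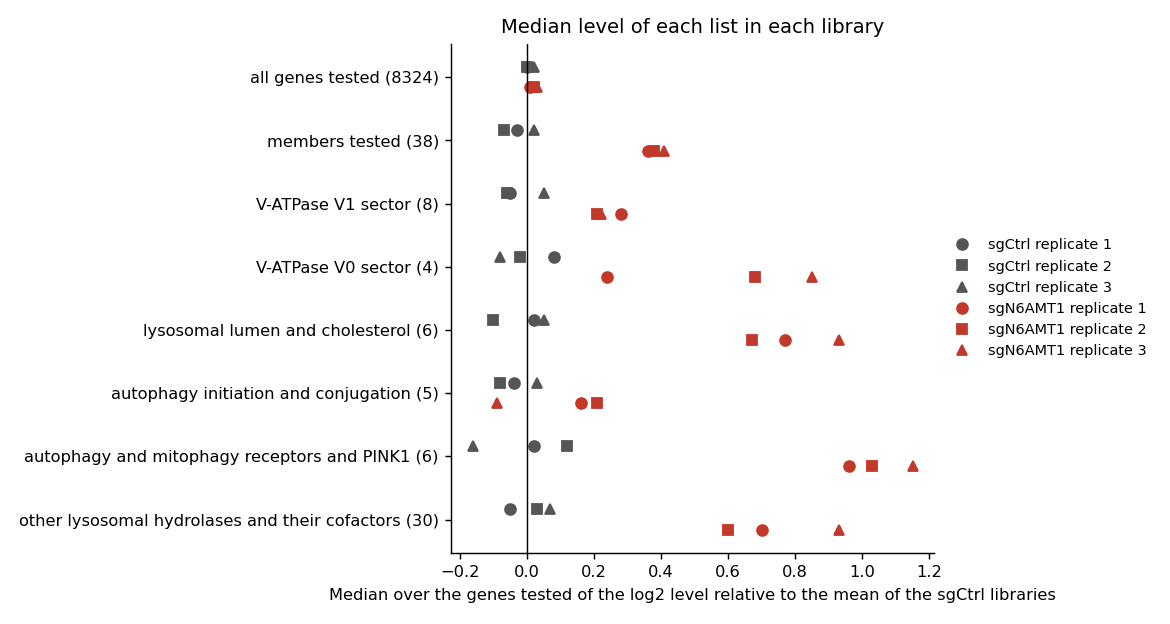
Median over the genes tested (number in brackets) of the log2 level of each library, set against the sgCtrl mean, for all genes, the members and 6 groups; symbols mark the replicates. The 3 sgN6AMT1 libraries lie at 0.36 to 0.41 for the members and at 0.96 to 1.15 for the receptors and PINK1, and at 0.01 to 0.03 for all genes tested.

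The cells carried the markers of K562 in both conditions. HBG1, a fetal globin and the most abundant marker of the erythroid list, had 4182, 4678 and 7873 normalized cpm in sgCtrl and 7867, 10613 and 15983 in sgN6AMT1. Of the 10 erythroid markers, 3 were called higher, the globins HBG1, HBG2 and HBE1 (log2 fold changes of 1.04, 1.05 and 0.89), and 0 lower (edgeR; HBZ, at -0.39, had an unadjusted p of 0.0209). GATA1, the master regulator of the lineage, was at -0.03 (edgeR adjusted p = 0.945). Summed over the list, the erythroid markers had 11598, 12143 and 18908 cpm in sgCtrl and 19066, 24649 and 35709 in sgN6AMT1, a sum carried by HBG1 and HBG2. The list did not move together, since HBZ, TFRC and EPOR had negative log2 fold changes that did not pass (-0.39, -0.25 and -0.26), and TAL1 a positive one of 1.02 (edgeR adjusted p = 0.0504). Their part in the members' change was not tested.

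Macrophages are rich in lysosomes, so their markers were read beside the members. Of the 7 macrophage markers, CD14, CSF1R, CD163 and MRC1 had at most 3 counts in every library. LYZ, the most abundant of the 7, was higher in sgN6AMT1 (log2 fold change 0.83, edgeR adjusted p = 0.0489), and CD68, itself a lysosomal glycoprotein, had a log2 fold change of 1.20 (edgeR adjusted p = 0.0626). ITGAM was at 0 in the sgCtrl libraries and at 5.27, 10 and 12.9 cpm in sgN6AMT1. The summed macrophage list was 41.7, 43.8 and 41.3 cpm in sgCtrl and 70.6, 98.7 and 93.1 in sgN6AMT1, and its part in the result was not tested. Of the lymphocyte markers (4 of 5 matched) and the 5 epithelial markers, CD3D and EPCAM were tested, and neither passed. In RNA from bulk cells, a change in the level within each cell and a change in the share of cells that express a gene cannot be told apart.

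The promoters of the members were searched for the letters CACGTG and for TCACGTGA, the longer CLEAR core that contains them, from 250 bases before to 50 bases after the start site. Each motif is its own reverse complement, so that a match counts for both strands. RefSeq promoters of GRCh38.p14 covered 31 of the 41 members, and 8 of these (25.8%) held CACGTG, against 10.9% of 15843 protein-coding genes. TCACGTGA was found in 5 of the 31 (16.1%), against 1.65%. The 8 genes were ATP6V0B, ATP6V0D1, ATP6V1G1, LAMP1, LAMTOR1, CTSA, CTSD and ATG3. Among members with a promoter entry, CACGTG was present in 4 of 8 called higher and in 4 of 20 not called, in the wider list of lysosome and autophagy genes described further on in 3 of 17 called higher and 18 of 88 not called, and among all genes tested in 10.9% of those called higher, 18.1% of those called lower and 14% of all with a promoter. TCACGTGA was present in 2 of 8 members called higher and 3 of 20 not called, in 0 of 17 genes of the wider list called higher and 8 of 88 not called, and in 2.65% of all genes tested with a promoter. A match is only a match of letters, and binding was not measured.

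The sequences below are the bases just before the RefSeq start site, written in the direction of the gene, for the called members with an E-box (ATP6V0B, ATP6V0D1, CTSA and CTSD) and for 2 members with an E-box that were not called (ATP6V1G1 and LAMP1). They are shown so that the motif can be compared with the response of the gene. Capitals mark CACGTG, or TCACGTGA where the flanking bases are present. The regions are chr1:43974860-43974959 (plus strand) for ATP6V0B, chr16:67481158-67481257 (minus strand) for ATP6V0D1, chr20:45891235-45891334 (plus strand) for CTSA, chr11:1763928-1764027 (minus strand) for CTSD, chr9:114587669-114587768 (plus strand) for ATP6V1G1 and chr13:113297039-113297238 (plus strand) for LAMP1, all in GRCh38.p14. The stretches of ATP6V0B, CTSA and CTSD lie inside the GENCODE gene, which starts further upstream, those of ATP6V0D1 and ATP6V1G1 span its start, and that of LAMP1 ends just before it. The last capitals of LAMP1 open a motif that runs past the start site.
ATP6V0B: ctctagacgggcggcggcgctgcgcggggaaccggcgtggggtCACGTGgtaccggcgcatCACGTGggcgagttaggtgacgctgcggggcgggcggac
ATP6V0D1: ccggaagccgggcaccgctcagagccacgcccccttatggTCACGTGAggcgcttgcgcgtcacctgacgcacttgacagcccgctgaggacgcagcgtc
CTSA: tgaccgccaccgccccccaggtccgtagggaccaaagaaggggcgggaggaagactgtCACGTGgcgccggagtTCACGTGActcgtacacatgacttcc
CTSD: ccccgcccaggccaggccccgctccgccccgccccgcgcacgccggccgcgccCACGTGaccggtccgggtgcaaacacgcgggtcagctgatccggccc
ATP6V1G1: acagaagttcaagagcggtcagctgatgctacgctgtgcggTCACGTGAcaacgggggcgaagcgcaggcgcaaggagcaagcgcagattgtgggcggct
LAMP1: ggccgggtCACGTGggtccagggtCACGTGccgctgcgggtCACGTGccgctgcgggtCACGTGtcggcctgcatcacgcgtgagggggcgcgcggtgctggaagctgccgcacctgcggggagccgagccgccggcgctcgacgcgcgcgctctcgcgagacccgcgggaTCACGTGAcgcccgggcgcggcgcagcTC
ATP6V0B had 2 E-boxes, at -57 and -39 from the start site, and CTSA had 2, at -42 and -25. ATP6V0D1, ATP6V1G1 and CTSD had 1 each, at -59, -58 and -47. LAMP1 had 6, the most of the 31 members with a promoter entry, and its RNA had a log2 fold change of -0.10.

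Among the V0 genes, ATP6V0B stood out. It encodes the c'' subunit of the proton-carrying ring and lies at chr1:43974487-43978295 on the plus strand (GENCODE v44, GRCh38, as for all gene positions here). Its level was 157, 129 and 213 TMM-normalized cpm in sgCtrl and 360, 404 and 640 in sgN6AMT1. All 3 sgN6AMT1 libraries lay above the sgCtrl libraries, replicate 3 highest in each condition. This was a 2.82-fold rise, the largest among the members tested in this fit (log2 fold change 1.50, standard error 0.21, edgeR adjusted p = 0.000357). In sgN6AMT1 replicate 1 alone, set against the sgCtrl libraries, the log2 fold change was 1.12. It was 1.20 without sgN6AMT1 replicate 3 and 1.23 with a correction for GC content and length. These values lay below those of BNIP3L, which was at 1.27 or more in every other fit. ATP6V0D1, the d subunit that joins the ring to the central stalk, at chr16:67438014-67481181 on the minus strand, had 69.9, 64.6 and 71.9 cpm in sgCtrl and 106, 116 and 152 in sgN6AMT1. The conditions did not overlap, and the rise was 1.83-fold (log2 fold change 0.87, standard error 0.19, edgeR adjusted p = 0.00819). The call of ATP6V0D1 was lost without sgCtrl replicate 2 (0.82, edgeR adjusted p = 0.0599), and in sgN6AMT1 replicate 1 alone its log2 fold change was 0.64.

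The other V0 genes did not pass. ATP6V0C, the c subunit of the same ring, had 67.2, 51.9 and 36.5 cpm in sgCtrl and 45.3, 43.1 and 33.9 in sgN6AMT1. Its values overlapped (log2 fold change -0.36, 95% interval -0.87 to 0.15, edgeR adjusted p = 0.372). In the annotation, 76.3% of the exon bases of ATP6V0C are shared with read-through genes on the same strand, so that its counts depend on how such reads were assigned. ATP6V0E1, the small e subunit, was at 0.42 (edgeR adjusted p = 0.42), with sgN6AMT1 replicate 1 below and replicates 2 and 3 above the sgCtrl libraries.

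Per kilobase of transcript, which allows levels of different genes to be set side by side, ATP6V0B had 169 ± 43.4 cpm per kb (SD, n = 3) in sgCtrl, and the other V0 genes had 14.7 to 47.5. In sgN6AMT1 it had 474 ± 152 cpm per kb, the highest level among the V-ATPase members, while in sgCtrl ATP6V1F was at 182 ± 44.3, within its spread of ATP6V0B, and ATP6V1E1 at 130 ± 29.3. The 4 V0 genes summed to 280, 233 and 306 cpm per kb in sgCtrl and to 482, 542 and 794 in sgN6AMT1. ATP6V0B made up 57%, 56.1% and 70.6% of this sum in sgCtrl and 75.7%, 75.5% and 81.6% in sgN6AMT1. The share is of these 4 genes and not of the whole sector. It leaves out V0 genes outside the members, such as ATP6V0A1 and ATP6V0A2 (27.1 and 14.5 cpm per kb in sgCtrl). It also rests on ATP6V0C, whose counts depend on how reads were assigned. The 8 V1 genes summed to 552, 501 and 516 cpm per kb in sgCtrl and to 561, 610 and 613 in sgN6AMT1. Neither pair of sums overlapped between the conditions, and the gap was narrow for V1. These sums were not tested.

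The V1 sector holds the catalytic A and B subunits, the stalks and the regulatory H subunit. ATP6V1H, which encodes the H subunit (chr8:53715543-53843558, minus strand), was the V1 gene that passed, with 52.4, 50.8 and 58.9 cpm in sgCtrl and 74.8, 88.7 and 89.5 in sgN6AMT1. The conditions did not overlap (log2 fold change 0.66, standard error 0.19, edgeR adjusted p = 0.0363). Its call depended on the libraries, since it was lost when any library other than sgN6AMT1 replicate 1 was left out (edgeR adjusted p of 0.051 without sgCtrl replicate 3 to 0.153 without sgCtrl replicate 2), and DESeq2 gave an adjusted p of 0.0791. The other 7 V1 genes were not called, and their log2 fold changes ran from -0.02 for ATP6V1F, a stalk subunit, to 0.34 for ATP6V1D, the central rotor. For ATP6V1A, the catalytic subunit, sgCtrl had 117, 122 and 112 cpm and sgN6AMT1 had 135, 139 and 153. These values did not overlap, and the log2 fold change was 0.29 (95% interval -0.04 to 0.62, edgeR adjusted p = 0.254). ATP6V1B2, its partner in ATP hydrolysis, was at 0.26, ATP6V1E1 and ATP6V1G1 of the peripheral stalk were at 0.25 and 0.24, and ATP6V1C1, which connects the stalks to V0, was at 0.13.

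Of the accessory genes, ATP6AP1 was higher in sgN6AMT1. It encodes a V-ATPase assembly factor and lies at chrX:154428633-154436516 on the plus strand. Its level was 67.2, 86.5 and 114 cpm in sgCtrl and 132, 126 and 168 in sgN6AMT1 (log2 fold change 0.67, standard error 0.20, edgeR adjusted p = 0.0383). The lowest sgN6AMT1 library was close to the highest sgCtrl library, and the call was lost without sgCtrl replicate 1, sgCtrl replicate 2 or sgN6AMT1 replicate 3 (edgeR adjusted p of 0.175, 0.153 and 0.103) and once GC content and length were corrected for. ATP6AP2, the prorenin receptor, had 44.3, 77.3 and 60.1 cpm against 115, 71.2 and 76.4, a log2 fold change of 0.47 (edgeR adjusted p = 0.204). For ATP6AP2, sgN6AMT1 replicate 1 was the high library, and replicates 2 and 3 lay below the highest sgCtrl library.

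None of the 4 members that belong to the lysosomal membrane or the Ragulator passed the test. LAMP1, a main glycoprotein of the lysosomal membrane, had 116, 95.8 and 97.8 cpm in sgCtrl and 76.9, 92 and 114 in sgN6AMT1. The conditions overlapped through sgN6AMT1 replicate 3, while replicates 1 and 2 lay below the sgCtrl libraries (log2 fold change -0.10, 95% interval -0.49 to 0.28, edgeR adjusted p = 0.773). LAMP2, its paralog that also serves chaperone-mediated autophagy, was at 0.39 (edgeR adjusted p = 0.268). The interval for LAMP1 left out a rise of the size seen for ATP6V0B or the cathepsins. LAMTOR2, which helps to hold mTORC1 at the lysosome, had 28.2, 42.7 and 33 cpm in sgCtrl and 51.6, 59 and 53.2 in sgN6AMT1. Its conditions did not overlap, with a log2 fold change of 0.66 (edgeR adjusted p = 0.0725), above the threshold. LAMTOR1, the lipid anchor of the same complex, was at 0.12 (95% interval -0.35 to 0.59).

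Of the 6 genes of the lysosomal lumen and cholesterol export that were tested, 5 were higher, among them the proteases CTSB, CTSD and CTSL. CTSB, a cysteine protease at chr8:11842524-11869533 on the minus strand, had 117, 86.5 and 79 cpm in sgCtrl and 163, 194 and 234 in sgN6AMT1, a 2.12-fold rise (log2 fold change 1.09, standard error 0.19, edgeR adjusted p = 0.00181). CTSD, the aspartic protease of the lysosome, at chr11:1752752-1764573 on the minus strand, had 79.3, 50.8 and 53.1 cpm against 104, 150 and 152 (log2 fold change 1.19, standard error 0.21, edgeR adjusted p = 0.00216). CTSL, a further cysteine protease, at chr9:87724051-87731469 on the plus strand, had 75.3, 76.1 and 93.1 cpm against 170, 157 and 148 (log2 fold change 0.95, standard error 0.17, edgeR adjusted p = 0.00227). None of these 3 genes had overlapping conditions. Their sgN6AMT1 replicates were ordered differently: replicate 1 was the lowest for CTSB and CTSD and the highest for CTSL. In sgN6AMT1 replicate 1 alone, set against the sgCtrl libraries, the log2 fold changes of CTSL, CTSB and CTSD were 1.07, 0.81 and 0.79. The annotation shares 27.3% of the exon bases of CTSD with genes on the same strand, and 23.4% face genes on the other strand.

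CTSA and HEXA were called closer to the threshold. CTSA, the protective protein that stabilizes neuraminidase and beta-galactosidase, lies at chr20:45890144-45898949 on the plus strand and had 55.1, 56.5 and 64.8 cpm in sgCtrl and 99.1, 76.7 and 99.2 in sgN6AMT1 (log2 fold change 0.62, standard error 0.19, edgeR adjusted p = 0.0486). HEXA, the alpha subunit of beta-hexosaminidase, at chr15:72340924-72376420 on the minus strand, had 80.6, 80.8 and 121 cpm against 137, 122 and 185 (log2 fold change 0.65, standard error 0.20, edgeR adjusted p = 0.0486). The conditions did not overlap for either, although sgN6AMT1 replicate 2 of HEXA was close to sgCtrl replicate 3. CTSA was lost when any library other than sgN6AMT1 replicate 2 was left out (edgeR adjusted p of 0.0635 without sgCtrl replicate 3 to 0.175 without sgCtrl replicate 2), and HEXA without sgCtrl replicate 1, sgCtrl replicate 2 or sgN6AMT1 replicate 3 (0.178, 0.226 and 0.176). Neither passed with RLE size factors or with total counts in place of TMM. In the annotation, 21.5% of the exon bases of CTSA and 14.1% of those of HEXA face genes on the other strand. The strand used in counting is not given. NPC1, the membrane protein that exports cholesterol from the lysosome, was not called, with 68.5, 58.8 and 60.1 cpm against 59, 63.5 and 68.4. Its log2 fold change was 0.04 (95% interval -0.36 to 0.44, edgeR adjusted p = 0.923).

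**Figure D3:**
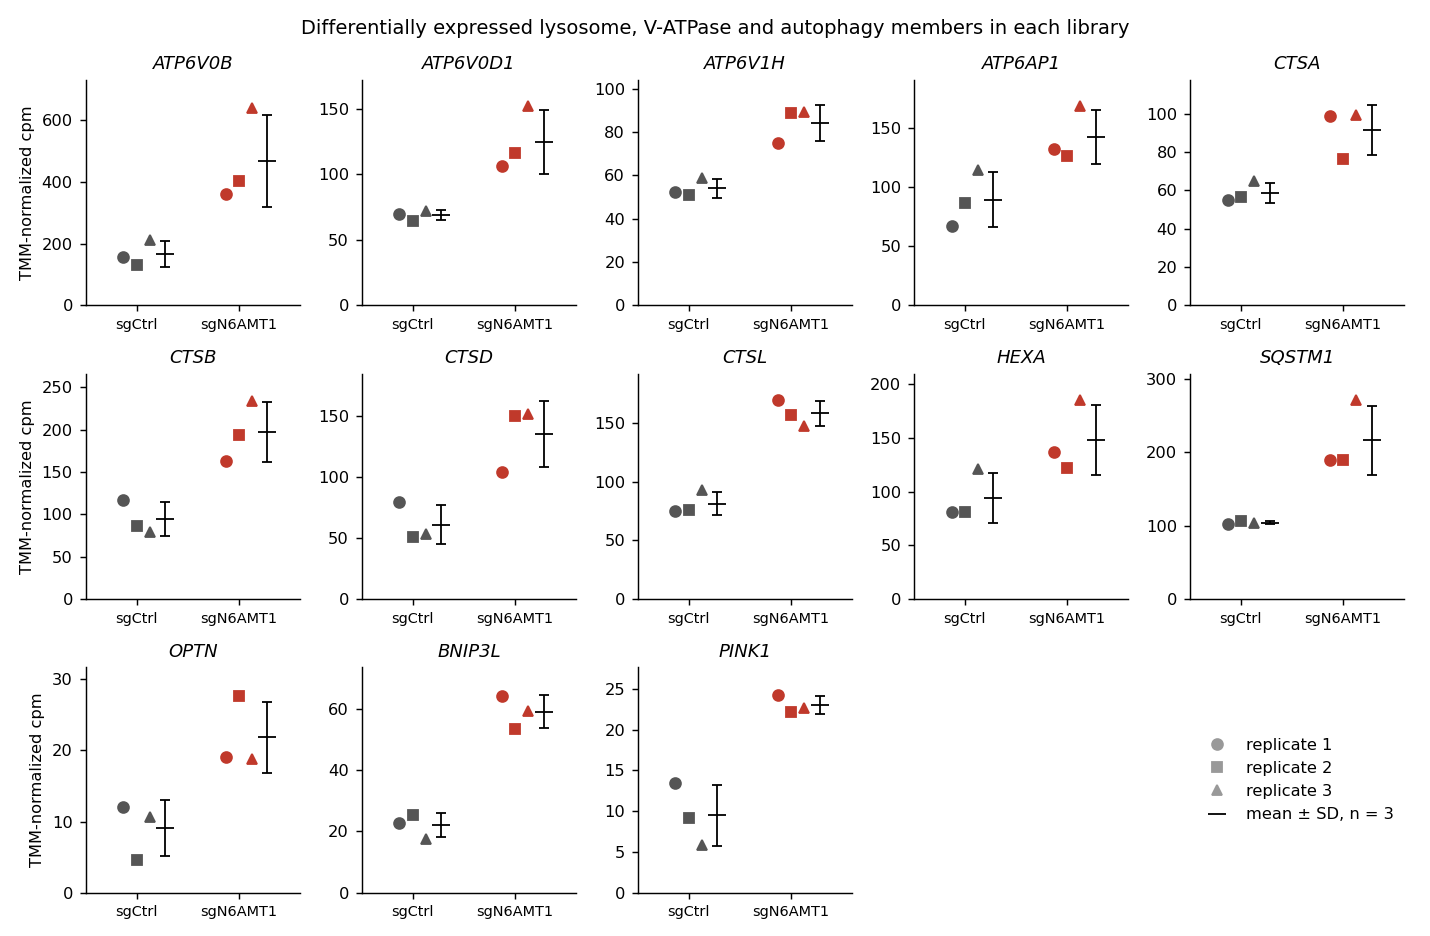
TMM-normalized cpm (y axis, from 0) of the 13 members called higher in each of the 3 sgCtrl and 3 sgN6AMT1 libraries; symbols mark the replicates and the black bars the mean ± SD (n = 3). In each panel all sgN6AMT1 libraries lie above all sgCtrl libraries, with the smallest gap for HEXA and the largest fold for ATP6V0B.

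Of the transcription factors that govern this program, TFE3 showed no change in its own RNA that was detectable at this depth. It had 29.6, 18.5 and 27.1 cpm in sgCtrl and 31.6, 22.6 and 24.9 in sgN6AMT1 (log2 fold change 0.03, 95% interval -0.57 to 0.64, edgeR adjusted p = 0.959). TFEB, at 1.34, 6.92 and 2.36 cpm against 0, 1.46 and 7.2, did not pass the filter on low counts and has no fold change here. The activity of these factors is known to be set largely by phosphorylation and location, which RNA counts do not measure.

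No gene of autophagy initiation and conjugation passed the test, of 5 tested. BECN1, a subunit of the lipid kinase that starts the autophagosome, had 76.6, 72.7 and 76.6 cpm in sgCtrl and 84.3, 76.7 and 63 in sgN6AMT1 (log2 fold change -0.03, 95% interval -0.43 to 0.36, edgeR adjusted p = 0.94). ATG3 and ATG7, the E2-like and E1-like enzymes of ATG8 conjugation, were at 0.03 and 0.42 (edgeR adjusted p = 0.941 and 0.278), and ATG12, the ubiquitin-like partner of ATG5, was at -0.18 (0.692). ATG5 had 71.2, 66.9 and 82.5 cpm in sgCtrl and 88.5, 100 and 111 in sgN6AMT1. Its conditions did not overlap, and its log2 fold change of 0.46 did not pass (edgeR adjusted p = 0.116) until GC content and transcript length were corrected for. ULK1, the kinase that initiates autophagy, had 6.72, 8.08 and 10.6 cpm against 7.38, 11.1 and 8.48 and was not tested.

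MAP1LC3B, the ATG8 protein most used as a marker of autophagosomes, had lower values in sgN6AMT1. Its level was 33.6, 31.1 and 35.4 cpm in sgCtrl and 22.1, 26.1 and 8.23 in sgN6AMT1, without overlap, replicate 3 being the lowest. The log2 fold change of -0.85 did not pass (95% interval -1.61 to -0.09, edgeR adjusted p = 0.141), and without sgN6AMT1 replicate 3 it was -0.43. MAP1LC3B2, a near-identical copy, was counted as a gene of its own, at -0.30 (edgeR adjusted p = 0.72), and reads may be split between them. GABARAPL2, of the other ATG8 subfamily, was at 0.34 (edgeR adjusted p = 0.414).

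Of the 6 genes of receptors and mitophagy, SQSTM1, OPTN, BNIP3L and PINK1 were higher. SQSTM1, which encodes p62, the receptor that links ubiquitinated cargo to ATG8 proteins, had 102, 106 and 104 cpm in sgCtrl and 189, 190 and 271 in sgN6AMT1. The sgCtrl libraries were close together and the conditions were far apart (2.10-fold, log2 fold change 1.07, standard error 0.18, edgeR adjusted p = 0.00126). SQSTM1 lies at chr5:179806398-179838078 on the plus strand, and 22.4% of its exon bases face MGAT4B and MRNIP on the other strand. MGAT4B itself was at 0.30 (edgeR adjusted p = 0.323). OPTN, a receptor for damaged mitochondria and bacteria, lies at chr10:13099449-13138308 on the plus strand and was a low gene. It had 9, 4 and 9 counts or 12.1, 4.61 and 10.6 cpm in sgCtrl and 19, 27.6 and 18.8 cpm in sgN6AMT1 (log2 fold change 1.31, standard error 0.38, edgeR adjusted p = 0.0377). OPTN met the filter on low counts only through its sgN6AMT1 libraries, and was not tested with at least 10 counts required in every library. The OPTN call was lost without any sgCtrl library (edgeR adjusted p of 0.0673, 0.212 and 0.0635 without replicates 1 to 3) and without sgN6AMT1 replicate 2 (0.173). NBR1, a receptor related to p62, was at 0.31 (edgeR adjusted p = 0.311), with overlapping conditions.

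Among the mitophagy genes, BNIP3L and PINK1 were higher, and FUNDC1 had lower values that did not pass. BNIP3L, also called NIX, the receptor known for the clearance of mitochondria during red cell maturation, lies at chr8:26383054-26505636 on the plus strand. It had 22.8, 25.4 and 17.7 cpm in sgCtrl and 64.3, 53.5 and 59.4 in sgN6AMT1. The lowest sgN6AMT1 library was far above the highest sgCtrl library, and the rise was 2.65-fold (log2 fold change 1.41, standard error 0.25, edgeR adjusted p = 0.00197). PINK1, the kinase that labels depolarized mitochondria, lies at chr1:20633458-20651511 on the plus strand. It had 10, 8 and 5 counts or 13.4, 9.23 and 5.89 cpm in sgCtrl and 24.2, 22.1 and 22.6 cpm in sgN6AMT1 (log2 fold change 1.27, standard error 0.36, edgeR adjusted p = 0.0303). Like OPTN, PINK1 met the filter on low counts only through its sgN6AMT1 libraries, and was not tested with at least 10 counts required in every library. Its call was lost without sgCtrl replicate 2 or 3 or sgN6AMT1 replicate 2 or 3 (edgeR adjusted p of 0.122, 0.099, 0.0742 and 0.0571), and 39.5% of its exon bases face PINK1-AS, so that without the strand used in counting the source of the reads cannot be told apart. FUNDC1, a mitophagy receptor of the outer membrane that responds to hypoxia, had 21.5, 35.8 and 22.4 cpm in sgCtrl and 16.9, 15.5 and 7.97 in sgN6AMT1. Its conditions did not overlap, and its log2 fold change of -1.05 was just outside the threshold (standard error 0.35, edgeR adjusted p = 0.0635). It passed without sgN6AMT1 replicate 1 (-1.16, edgeR adjusted p = 0.0418). FUNDC1 also passed as lower without the filter on low counts and with at least 10 counts in every library. The same held with the replicate block, alone or with the GC content and length correction. FUNDC1 thus passed in only 5 of 17 other fits, over which its log2 fold change ran from -1.27 to -0.65.

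A wider list of 178 lysosome and autophagy genes was read in the same fit to place the members in their pathway, and 131 of its genes were tested. Of these, 22 were higher (16.8%, against 5.09% of all genes tested) and 3 lower (against 4.76% of all genes), with a median log2 fold change of 0.28. The higher count was 5 without sgCtrl replicate 2, 8 without sgCtrl replicate 1 and 10 without sgN6AMT1 replicate 3. In these fits 111, 162 and 263 of all genes were higher, against 424 with all libraries. The list's higher count was 13 with DESeq2, 6 at an adjusted p under 0.01 (edgeR) and 31 with the replicate block. There 293, 114 and 587 of all genes were higher. With at least 10 counts required in every library, 18 of 104 genes of the list were higher and 3 lower. There 354 and 347 of 7129 genes were higher and lower. Of 30 further lysosomal hydrolases and their cofactors, 13 were higher and 1 lower, and the median was 0.79, the sublist with the most calls. Among those called higher, CTSS (4, 7 and 0 counts in sgCtrl) and GM2A met the filter on low counts only through their sgN6AMT1 libraries. The same held for CTNS among the membrane proteins. Of 17 further autophagy initiation genes, 3 were higher and 0 lower (median 0.28), and of 7 further ATG8 and conjugation genes, 1 was higher and 0 lower (median 0.04). Of 17 Ragulator, Rag and mTORC1 genes, 1 was higher and 1 lower (median 0.10), and of 17 genes of autophagosome and lysosome fusion, 1 was higher and 0 lower (median 0.11). Of 18 further lysosomal membrane proteins, 2 were higher and 1 lower (median 0.31), and of 5 genes of lysosomal enzyme sorting, 0 passed (edgeR; 0 also at an unadjusted p under 0.05). None of the 4 further V-ATPase subunits tested passed (1 at an unadjusted p under 0.05 with edgeR), with log2 fold changes from -0.10 to 0.67. MITF, the other MiT/TFE gene tested, was at 0.08 (edgeR adjusted p = 0.882).

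PSAP, the precursor of the saposins that present sphingolipids to their hydrolases, had the smallest adjusted p of this list. It had 406, 410 and 378 cpm in sgCtrl and 750, 895 and 984 in sgN6AMT1 (log2 fold change 1.14, edgeR adjusted p = 0.00031). ASAH1, acid ceramidase, had 77.9, 78.5 and 77.8 cpm against 188, 160 and 176 (log2 fold change 1.15, edgeR adjusted p = 0.000357). Both genes were well separated between the conditions. GM2A, the activator protein that hands GM2 ganglioside to the enzyme of which HEXA is a subunit, rose from 4.07 ± 0.628 to 18.3 ± 3.73 cpm (SD, n = 3, edgeR adjusted p = 0.00474). Its sgCtrl values stand for 3, 3 and 4 counts, at about the limit that a count of 0 allows, so that the size of its rise is imprecise. GM2A also met the filter on low counts only through its sgN6AMT1 libraries. NEU1, the neuraminidase stabilized by CTSA, rose from 52 ± 17.3 to 99 ± 7.38 cpm (log2 fold change 0.93, edgeR adjusted p = 0.0122). LAMTOR4, a Ragulator subunit like LAMTOR1 and LAMTOR2, rose by 1.52 on the log2 scale (edgeR adjusted p = 0.00414). The cathepsins CTSH and CTSC were higher by 0.81 and 0.64, IDS, which removes sulfate from glycosaminoglycans, by 1.31, FUCA1, a fucosidase, by 1.24, and LAPTM4B, a lysosomal membrane protein, by 0.70. The 3 lower genes were TMEM192, a lysosomal membrane protein (-1.04, edgeR adjusted p = 0.0385), NPRL3, a subunit of the GATOR1 complex that restrains mTORC1 (-0.84, 0.0279), and CTSZ, a further cathepsin (-0.74, 0.024). No gene of the wider list was called lower without sgCtrl replicate 1, without sgCtrl replicate 2, without sgN6AMT1 replicate 2, without both deep sgN6AMT1 libraries, with these libraries thinned, or at an adjusted p under 0.01 (edgeR). These 13 called genes had conditions that did not overlap.

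**Figure D4:**
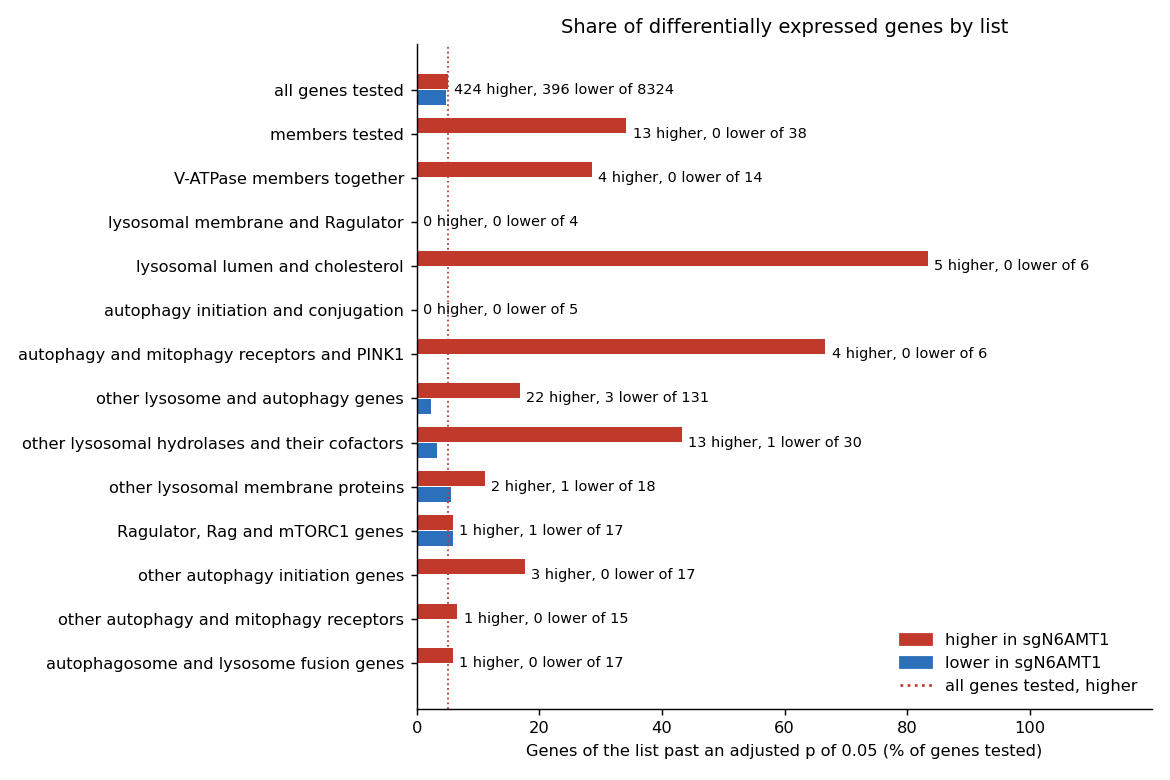
Share of the genes tested in each list that passed an adjusted p of 0.05 (x axis, percent), higher (red) and lower (blue) in sgN6AMT1, with the counts beside each bar; the dotted line marks the 5.09% of all genes tested that were higher. Bars of lists with few genes move in large steps, and the lumen lists reach 5 of 6 and 13 of 30.

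Across 17 other fits, 4 of the 13 called members passed in every one: ATP6V0B, CTSL, SQSTM1 and BNIP3L. These fits reuse the same 6 libraries, and the share of all called genes that passed in every fit was not counted. Their log2 fold changes ran from 1.12 to 1.72, 0.86 to 1.07, 0.86 to 1.16 and 1.27 to 1.56. CTSB and CTSD passed in 16 of the 17 fits and ATP6V0D1 in 15. The fit in which CTSB and CTSD did not pass was the one with sgN6AMT1 replicate 1 alone, where sgN6AMT1 has no spread of its own. CTSA passed in 5, the fewest of the 13. None of the 13 changed sign in these fits, which was unlikely for genes selected by a low p in the same libraries. Once the libraries were corrected for the GC content and length of transcripts, 11 members passed, all higher, where 401 of 8160 genes were higher and 527 lower. ATG5 was gained, and CTSA, ATP6AP1 and PINK1 were lost.

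**Figure D5:**
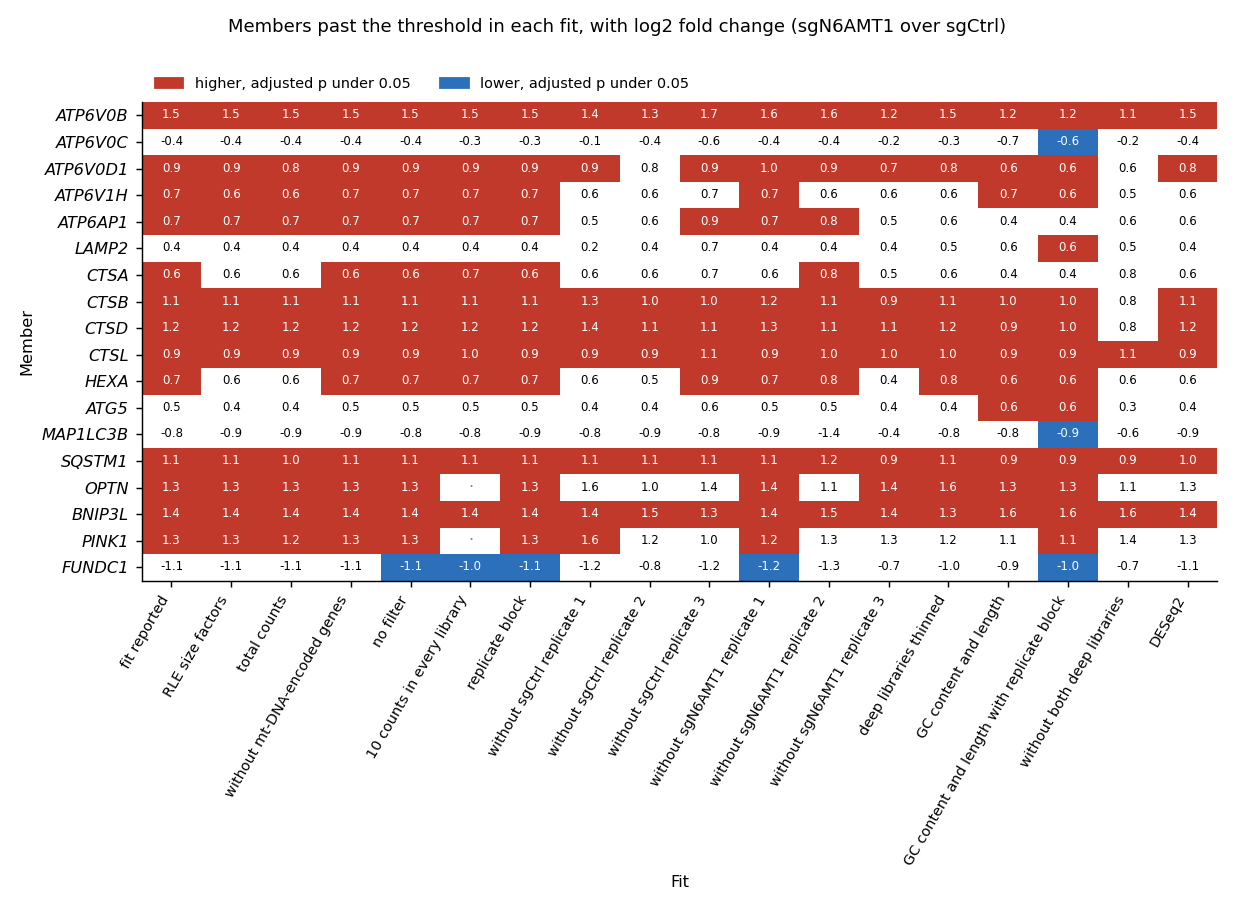
Log2 fold change of sgN6AMT1 over sgCtrl for the 18 members past the threshold in at least 1 fit (rows), in the fit reported and 17 others (columns); red cells are higher and blue cells lower at an adjusted p under 0.05, white cells did not pass and a dot marks a gene that was not tested. The rows of ATP6V0B, CTSL, SQSTM1 and BNIP3L are red throughout, and FUNDC1 is blue in 5 of the 17 other fits.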

How the data were processed

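The authors trimmed the reads with cutadapt (minimum length 15, quality cutoff 2), mapped them with HISAT2 to GRCh38, overlapped them with the annotation of release 84, and deposited raw counts per gene without normalization. The counting tool and its use of strand are not given in the sources used here. From these counts, 8324 genes passed filterByExpr and were compared in edgeR 4.0.16 (R 4.3.3) with TMM factors, glmQLFit and glmQLFTest over the 6 libraries without covariates. The members were read out of this fit, and the adjustment covers all genes tested. The common biological coefficient of variation was 0.16. Normalized cpm are TMM-normalized. Gene positions are from GENCODE release 44. Alternatives included DESeq2 1.42.0, other scalings and filters, thinning of the deep libraries to 858710 counts, a correction for GC content and length (values for 98% of the genes tested), and leaving out libraries. All 41 members are named, and of the wider list the called genes with the 10 smallest adjusted p in each direction. The members and lists were chosen with earlier results of these data known. The labels list polyA RNA as the molecule, whereas the protocol describes rRNA depletion. Neither gives a library batch. Pairs of libraries of the same condition differed beyond sampling noise (chi-square per degree of freedom 2.04 to 11.9).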

Additional observations from a re-analysis of the deposited data

How the results depend on the processing

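The 13 members called became 4 without both deep libraries (chosen after seeing the data, with sgN6AMT1 replicate 1 alone and the spread of sgCtrl), 7 with DESeq2, 7 at an adjusted p under 0.01, and 6 to 13 without single libraries (6 without sgCtrl replicate 2). For all genes tested, 820 became 122 without both deep libraries, 214 at an adjusted p under 0.01, 1340 with the GC content and length correction and the replicate block, and 220 to 951 without single libraries. The 25 genes of the wider list became 4 without both deep libraries, 15 with thinned deep libraries, 15 with DESeq2, 6 at an adjusted p under 0.01, and 5 to 28 without single libraries. The members' median of 0.37 was 0.31 with DESeq2 and 0.29 to 0.41 without single libraries. Without the filter on low counts the median of all genes rose to 0.12, and that of the members was 0.34. The causes of these changes were not tested. Replicate numbers were shared by the conditions but may be only names, and they were not taken as pairs. The deviations of same-numbered libraries correlated at -0.001, 0.083 and 0.19, and those of differently numbered libraries at -0.194 to 0.14. These values do not decide whether the numbers mark pairs. With the replicate block, 14 members passed (13 higher, FUNDC1 lower) and 1195 of all genes. With the block and the GC content and length correction, 13 members were higher and ATP6V0C, MAP1LC3B and FUNDC1 lower.

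None of the members called changed sign. As they were selected by a low p in the same libraries, a change of sign was unlikely from the start. Of the members not called, 11 changed sign in at least 1 fit, and rates over all genes were not counted. The log2 fold change of ATG3 ran from -0.10 (without sgCtrl replicate 1) to 0.27 (without sgCtrl replicate 2) over the fits without single libraries, below 0 also without sgCtrl replicate 3 or sgN6AMT1 replicate 2, and was -0.06 with the GC content and length correction, with or without the block. TFE3 ran from -0.16 (without sgCtrl replicate 2) to 0.16 (without sgCtrl replicate 1) over the fits without single libraries, and reached 0.35 over all 17 fits. It was -0.07 without sgN6AMT1 replicate 1, and -0.11 and -0.06 with the correction without and with the block. NPC1 was -0.01 without sgCtrl replicate 2 or sgN6AMT1 replicate 3, -0.11 with thinned deep libraries and -0.07 without both deep libraries. Over the fits without single libraries, ATP6V1F ran from -0.19 (without sgCtrl replicate 2) to 0.17 (without sgCtrl replicate 1). It was 0.10 without sgN6AMT1 replicate 1, 0.01 with at least 10 counts in every library, and -0.38 without both deep libraries. LAMTOR1 ran from -0.01 (without sgN6AMT1 replicate 3) to 0.28 (without sgCtrl replicate 1) over the fits without single libraries. It was -0.12 and -0.09 with the correction without and with the block. BECN1 was 0.08 without sgN6AMT1 replicate 3 and 0.18 without both deep libraries, where ATP6V0E1 was -0.48, ATP6V1B2 -0.13 and GABARAPL2 -0.35. ATP6V1C1 was -0.01 with thinned deep libraries, and ATG12 was 0.02 with the correction and the block.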

Other observations

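Further genes of the wider list were called higher, and those given here were chosen after their values were seen. GLB1, the beta-galactosidase that forms a complex with CTSA and NEU1, had 102 ± 10.4 cpm (SD, n = 3) in sgCtrl against 168 ± 33.5 in sgN6AMT1 (log2 fold change 0.71, edgeR adjusted p = 0.0193). CTNS, which exports cystine from the lysosome, had 5.23 ± 1.04 against 14.7 ± 2.15 cpm (log2 fold change 1.49, edgeR adjusted p = 0.0303). The sgCtrl values of CTNS stand for 3, 5 and 5 counts, so that the size of its rise is imprecise. It met the filter on low counts only through its sgN6AMT1 libraries. NCOA4, the receptor that delivers ferritin to autophagosomes, had 265 ± 10.4 against 388 ± 53.2 cpm (log2 fold change 0.56, edgeR adjusted p = 0.0245). BNIP3, the paralog of BNIP3L, was at -0.11 on the log2 scale (edgeR adjusted p = 0.817).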
